A study of Mus musculus with 27 samples.

Results

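The cytosolic ribosomal protein genes were followed through a mouse model of liver fibrosis in which bulk RNA was sequenced from 27 livers in 8 groups. The members were chosen by name alone: every row of the count table whose Ensembl identifier maps to a protein-coding mouse gene called Rpl or Rps with a number (and, for some, a closing a, x or y), together with Rplp0, Rplp1, Rplp2 and Rpsa. The rule matched 76 genes, of which 75 reached a mean of 10 counts per library. They comprised 45 genes of the large subunit and 30 genes of the small subunit, out of 14114 genes tested and 55414 genes in the table. The gene just outside the filter was Rpl24, with a mean of 7 counts and 0 to 16 counts per library, and the gene just inside it was Rps10, with a mean of 43.4 counts. No expression difference entered the rule.

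All mice were female Balb/c mice aged 8 weeks. The groups without fibrosis received olive oil by intraperitoneal injection for 2 weeks and comprised control mice that also had PBS through the tail vein (4 mice), mice gavaged daily with 600 mg/kg 4-methylumbelliferone, abbreviated 4MU (3 mice), mice injected with lipid nanoparticles carrying an siRNA against luciferase, siLuc-LNP (3 mice), and mice injected with nanoparticles carrying an siRNA against Has2, siHAS2-LNP (3 mice). The fibrosis groups received carbon tetrachloride (CCl4) by intraperitoneal injection, alone (2 mice), with 4MU (4 mice), with siLuc-LNP (4 mice) or with siHAS2-LNP (4 mice). The labels name neither PBS nor a gavage vehicle for the group given CCl4 alone, while the methods of the study describe gavage with the carboxymethyl cellulose vehicle for the controls of 4MU. The first siRNA dose was 1 mg/kg and later doses were 0.5 mg/kg. 4MU inhibits the synthesis of hyaluronan, a glycosaminoglycan of the extracellular matrix, HAS2 is an enzyme that makes hyaluronan, and luciferase has no mouse counterpart, so siLuc-LNP stands as the nanoparticle control. CCl4 is a hepatotoxin that is activated in hepatocytes, and the RNA came from homogenate of whole liver, in which fewer cells of a type and less RNA per cell cannot be told apart. The labels number the libraries of a group without saying more of their origin, so each was taken as 1 mouse, and p-values measure the spread between these libraries.

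The ribosome is built from ribosomal RNA and a fixed set of proteins in matched amounts, and their mRNAs are among the most abundant in most tissues. Most of these mRNAs begin with a run of pyrimidines directly at the cap, the 5′ terminal oligopyrimidine (TOP) motif, through which mTORC1 and the RNA-binding protein LARP1 control their translation and stability. In the liver, ribosome production is known to follow feeding, growth and regeneration after injury.

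Sequences near the start site of 8 members are printed because these genes include the largest rises and falls with CCl4 described further on. Each is a stretch of 30 bases from RefSeq windows on build GRCm38.p6, read 5′ to 3′ on the gene's strand. It is placed around the longest run of C and T within 50 bases of the annotated transcription start, in capitals. The run begins at position 41 from the start in Rpl41 and Rpl10, 40 in Rpl12, -39 in Rpl22 and -47 in Rps3. The stretches of these genes do not contain the start.
Rpl41, chr10:128549119-128549148, minus strand: cgccattaaatagcagtaggCCTCCCTCTC
Rps12, chr10:23787181-23787210, minus strand: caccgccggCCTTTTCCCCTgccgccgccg
Rplp0, chr5:115559467-115559496, plus strand: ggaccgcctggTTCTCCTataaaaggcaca
Rpl12, chr2:32961732-32961761, plus strand: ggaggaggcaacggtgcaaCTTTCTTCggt
Rpl15, chr14:18270967-18270996, minus strand: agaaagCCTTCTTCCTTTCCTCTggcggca
Rpl22, chr4:152325679-152325708, plus strand: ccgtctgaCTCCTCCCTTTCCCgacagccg
Rpl10, chrX:74270836-74270865, plus strand: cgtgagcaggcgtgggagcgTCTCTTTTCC
Rps3, chr7:99483739-99483768, minus strand: cgcaaaacttcaTTTCCCatgcaaaacttc
Both genes that rose, such as Rpl15 with a run of 17 bases, and genes that fell, such as Rpl22, carried such a run. That of Rpl22, of 14 bases, lies upstream of its annotated start. Rps3 had a longest run of 6 bases. A window was found for 55 of the 75 members. A run of at least 8 bases of C and T was present in 46 of these 55 windows (83.6%), against 9650 of the 27025 windows of all genes in the table (35.7%). The median longest run was 11 bases in the members and 7 bases in all genes. On the opposite strand the run was present in 23.6% of the members' windows and in 37.2% of all windows. A run near an annotated start is a description of these letters. It does not show where transcription began in these livers, nor that the run lies at the cap. The windows come from the reference genome and not from Balb/c mice.

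Libraries held 7044386 to 29425937 counts, with a median of 22109517, and the smallest was CCl4 + siHAS2-LNP mouse 4. The 75 members took 1.59% to 2.70% of all counts. TMM scaling factors ran from 0.816 to 1.32. Hepatocyte markers were abundant in every library. Has2 itself had 0 counts in 25 libraries and at most 2 counts in the other 2, so its knockdown could not be checked. With CCl4, averaged over the 4 arms, where 26.2% of all tested genes passed in the higher and 25.5% in the lower direction (edgeR, adjusted p under 0.05), 5 of 5 proliferation genes and 6 of 7 stellate cell and myofibroblast markers rose, with medians of 4.26 and 1.16 on the log2 scale, and Col1a1 rose by 4.06. Of the lymphocyte markers 4 of 9 tested fell and none rose, and of the hepatocyte markers 4 of 8 fell and 1 rose. All 4 cholangiocyte markers rose (median 1.37), 3 of 4 erythroid markers fell, 3 of 5 sinusoidal endothelial markers rose and 1 fell, and of 8 Kupffer cell and macrophage markers 2 rose and 4 fell. The part of these shifts in the results on ribosomal protein genes was not tested.

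Copies elsewhere in the genome can bear on which reads of a ribosomal protein gene are counted. Mammalian genomes hold many processed pseudogenes of these genes, and the authors counted only reads with a single position. Each coding sequence was cut into stretches of 85 bases, the least read length that the study states. A median of 76.2% of a member's stretches had an identical copy elsewhere in the genome, and the share ran from 0 to 100%. More than 50% of the stretches were copied in 58 of the 75 members (77.3%), compared with 319 of 12656 other tested coding genes (2.52%). Rps3, on the small subunit, had no copied stretch, and Rpl22 had 2.08%. Rpl5, Rpl10, Rpl12, Rps6 and Rps29 were copied along their whole length, and Rps12 along 98.96%. Across the 75 members the share copied and the mean count were almost unrelated (Spearman's rho of 0.04, a description across genes that share these libraries). Even so, Rpl10 had a mean of 11249 counts, Rps12 of 9417 and Rpl12 of 6797. A stretch stands for a single read, while both ends were read and pairs counted. The share copied is therefore not the share of pairs lost.

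**Figure D1:**
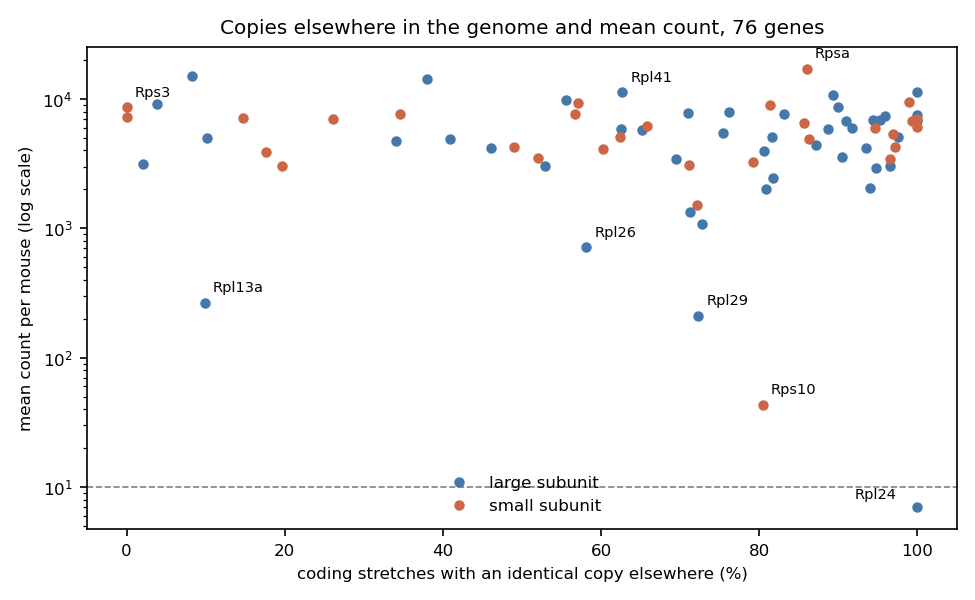
Mean count per mouse (log scale) of 76 genes against the percentage of 85-base coding stretches with an identical copy elsewhere in the genome; blue points are the large subunit, orange points the small subunit, and the dashed line marks the filter of 10 counts. Genes with every stretch copied still had many counts, whereas Rpl24 (7 counts), Rps10 (43.4), Rpl29 (212) and Rpl13a (267) lay apart below.

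Of the 4 genes with the fewest counts, 3 are overlaid in the annotation by another gene on the same strand. Rpl13a (mean of 267 counts) shared 97.5% of its coding bases with Gm45713, Rps10 (43.4 counts) shared 92.1% with Gm49804, and Rpl24 (7 counts) shared 83.4% with Gm28037. The counter named by the authors, featureCounts, by default assigns no read that overlaps more than 1 gene, and whether that default was kept is not given in the sources used here. The 3 overlapping models had 0 counts in all 27 libraries. Rpl29, the fourth gene, had 72.3% of its stretches copied and 212 counts. On the opposite strand, Ube2s covered all coding bases of Rpl28, which kept a mean of 6000 counts. The library kit marks strand, and the strand setting of the counting is not given in the sources used here. Rows named as ribosomal protein pseudogenes numbered 323, of which 54 were tested, and the fullest were Rps2-ps10 (mean of 6406 counts), Rps18-ps5 (1941) and Rpl3-ps1 (1516).

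Levels are given as CPM, for which each library total was first adjusted by its TMM factor. Per kilobase of exon, the highest mean levels over the 27 mice were those of Rpl41 (1302), which encodes a peptide of 25 residues, Rplp1 (1189), an acidic protein of the P stalk, and Rps12 (843), a small-subunit protein. The lowest were those of Rpl29 (2.97), Rps10 (3.99) and Rpl13a (11.7), the tested genes with the fewest counts. A member had a median of 252 CPM over the 27 mice, against 12.5 CPM for all tested genes.

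The summed level of the 75 members had group means from 18306 CPM (4MU) to 22130 CPM (CCl4 + siLuc-LNP), and within the last group the highest mouse was at 2.21 times the lowest. It was 16890, 20742, 20831 and 17843 CPM in the control mice, 16516, 17674 and 20728 in the 4MU mice, 25909, 17288 and 16746 in the siLuc-LNP mice, and 16441, 21138 and 19574 in the siHAS2-LNP mice. With CCl4 it was 21663 and 20437 CPM, with CCl4 + 4MU 17986, 21960, 19876 and 23587, with CCl4 + siLuc-LNP 20465, 21529, 32021 and 14503, and with CCl4 + siHAS2-LNP 22996, 17487, 19078 and 15917. The highest and the lowest livers of the whole series were both in the CCl4 + siLuc-LNP group. The mean was 19076 ± 2013 CPM (SD, n = 4) for control, 21050 ± 867 (SD, n = 2) for CCl4 and 22130 ± 7283 (SD, n = 4) for CCl4 + siLuc-LNP. Each group with CCl4 overlapped its own group without it.

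**Figure D2:**
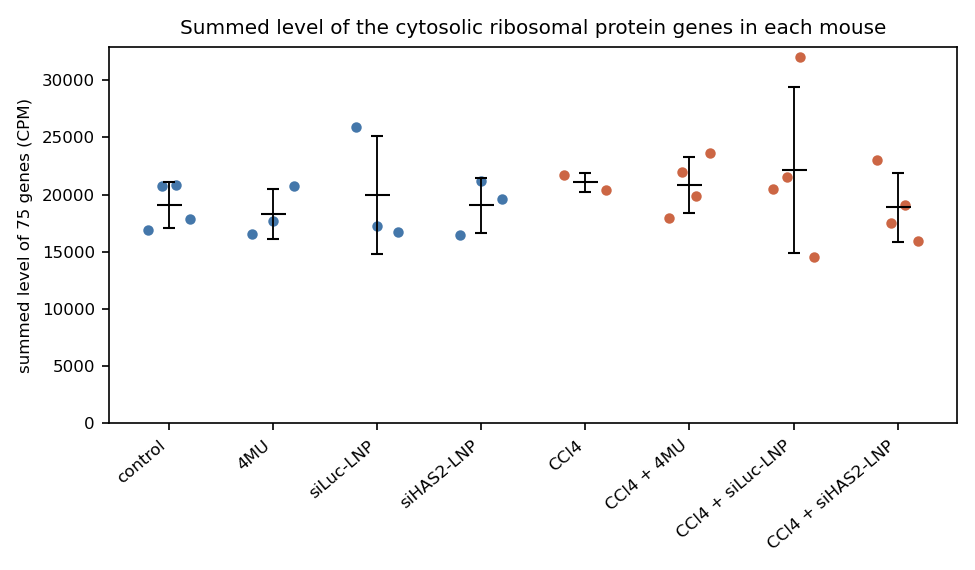
Summed level of the 75 cytosolic ribosomal protein genes (CPM) in each of 27 mice by group; points are mice, blue without and orange with CCl4, and horizontal and vertical bars give the group mean and SD. CCl4 + siLuc-LNP mouse 3 (32021) and mouse 4 (14503) are the highest and lowest livers, and siLuc-LNP mouse 1 (25909) is the highest without CCl4.

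The members mostly went up and down together from mouse to mouse within a group, but not in every liver. In CCl4 + siLuc-LNP mouse 3, all 75 members lay above their group mean, and in mouse 4 of that group only 1 did. The corresponding numbers were 71 of 75 in control mice 2 and 3 and 2 in control mouse 1, 72 in siLuc-LNP mouse 1 and 2 in mouse 2, and 0 in CCl4 + 4MU mouse 1. The members were split in CCl4 mice 1 and 2, with 42 and 33 above, and in CCl4 + siLuc-LNP mice 1 and 2, with 25 and 42. On the log2 scale the median member of a mouse lay between -0.55 (CCl4 + siLuc-LNP mouse 4) and 0.60 (mouse 3 of that group) from its group mean, with 0.41 in siLuc-LNP mouse 1. These differences are larger than the median CCl4 difference of the members described next, which is 0.07 over the 4 arms. They are of the order of the extreme single genes there (-0.32 to 0.67).

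The within-group SD of a member had a median of 0.29 on the log2 scale. After the median member of each mouse was subtracted, it was 0.13. For the 3640 other tested genes above a mean log2 CPM of 5, the same subtraction took the median SD from 0.23 to 0.36. The subtracted median comes from the members, so a fall of their SD and a rise for other genes are partly built in. Rpsa, the laminin receptor homologue of the small subunit, followed the module most closely, with an SD of 0.053 after subtraction. Rps10 (0.38), Rpl31 (0.30) and Rpl29 (0.29) were among those that followed it least.

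Other genes moved beside the members in these livers. In CCl4 + siLuc-LNP mouse 3 and mouse 4 and in siLuc-LNP mouse 1, 326 other abundant coding genes with under 450 coding bases had median differences from the group mean of 0.25, -0.35 and 0.18 on the log2 scale. For 382 abundant genes with over 3000 coding bases these were -0.09, 0.20 and -0.20. The list of elongation factors and other TOP mRNAs gave 0.28, -0.31 and 0.24, and mitochondrial ribosomal proteins, which belong to a separate ribosome, gave 0.22, -0.30 and 0.19. The summed level of ribosomal protein pseudogenes was 1022 CPM in CCl4 + siLuc-LNP mouse 3 and 541 to 792 CPM in the other livers. The part of transcript length or of any property of the RNA in the members' levels was not tested.

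**Figure D3:**
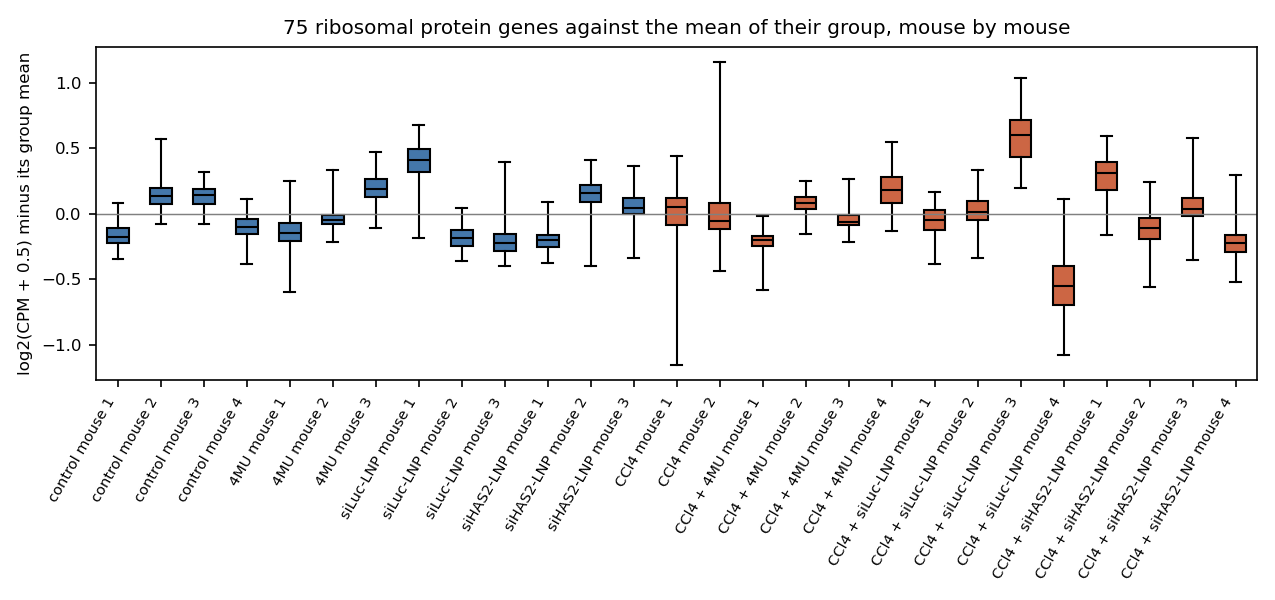
Difference of each of 75 members from its group mean (log2) in each of 27 mice, as boxes (quartiles, with the median) and whiskers (lowest and highest gene), by group. The whole module is shifted in single mice, from a median of -0.55 in CCl4 + siLuc-LNP mouse 4 to 0.60 in mouse 3, and the 2 CCl4 mice mirror each other because a group of 2 has 1 free difference.

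The question of whether CCl4 changed the module was put to the mean of the 4 within-arm contrasts (CCl4 against control, and the same with 4MU, siLuc-LNP and siHAS2-LNP), with edgeR's quasi-likelihood test and Benjamini-Hochberg adjustment over all tested genes. Of the 75 members, 17 rose and 3 fell, which is 26.7% of them, where 51.7% of all tested genes passed (26.2% higher and 25.5% lower). The median log2 difference was 0.07 for the members and -0.02 for all genes, with 0.06 for the large and 0.08 for the small subunit. At an unadjusted p under 0.05 there were 25 members. None of the 75 had every CCl4 mouse on one side of every mouse without it, which held for 3.21% of all tested genes in the higher and 1.37% in the lower direction. Short coding genes outside the module had a median of -0.20, long ones of 0.07.

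This count depended on scaling. With library totals in place of TMM, 40 members were called higher and 0 lower, where 51.1% of all genes passed, while the median of all tested genes moved to 0.16. With libraries scaled to the members themselves, a choice made after seeing the data, 12 were called higher and 9 lower, where 41.0% of all genes passed, and 15 of the calls were shared with the TMM fit. That scaling gives the members the same mean log2 level in every library, so calls on both sides of 0 are built in. Calls with it, here and below, are relative to the other members. The split of higher against lower calls thus differed between TMM and library totals. From here on, counts under other methods or with mice left out have a share of all genes only where one is printed. Elsewhere they are not set against it.

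**Figure D4:**
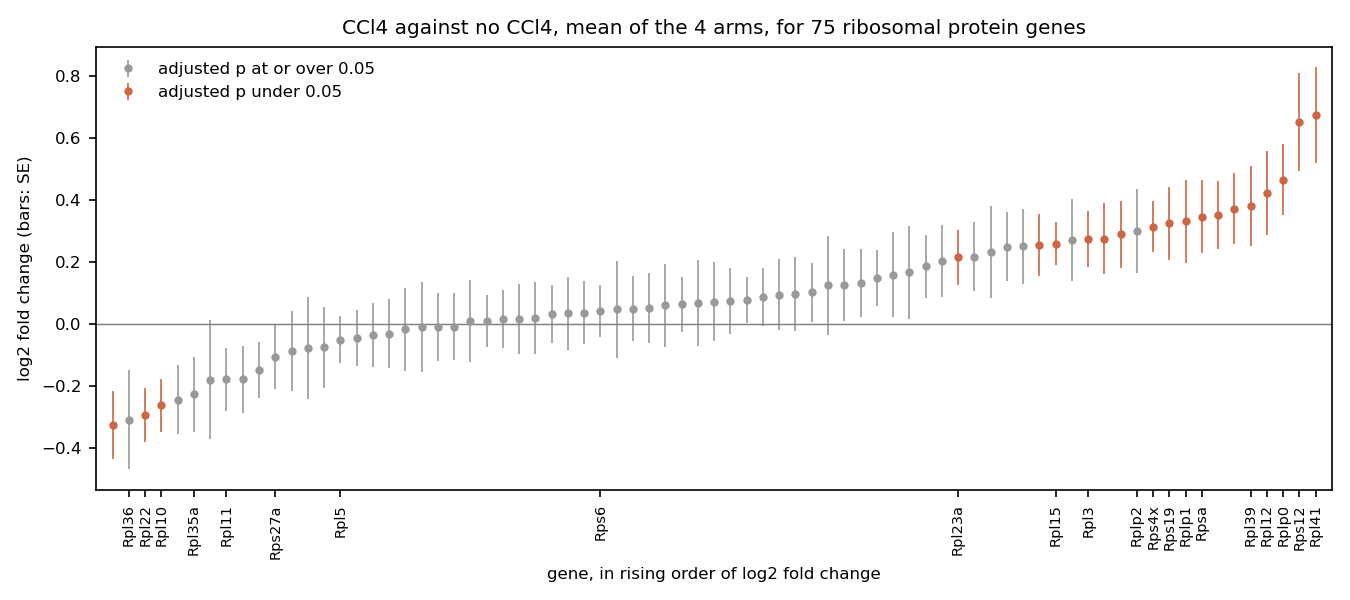
Log2 fold change with its SE of each of 75 members for CCl4 against no CCl4, mean of the 4 arms, in rising order, with some of them named on the axis; orange points have an adjusted p under 0.05 (edgeR). Rpl41 (0.67), Rps12 (0.65) and Rplp0 (0.47) lie at the upper end and Rpl22 (-0.29) and Rpl10 (-0.26) among the lowest; under library-total scaling the 3 lower calls are lost.

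The P stalk, where elongation factors dock on the large subunit, came first among the groups of members. Rplp0 (ENSMUSG00000067274, chr5:115694515-115701793 on GRCm39), the base of the stalk, was at 172.7, 185.0, 189.3 and 179.8 CPM in control, 171.8, 165.4 and 195.8 in 4MU, 168.3, 158.1 and 169.3 in siLuc-LNP, and 172.2, 223.9 and 201.6 in siHAS2-LNP mice. With CCl4 it was at 266.3 and 239.9 CPM, with CCl4 + 4MU at 233.5, 276.9, 243.9 and 347.8, with CCl4 + siLuc-LNP at 209.3, 278.6, 399.6 and 143.1, and with CCl4 + siHAS2-LNP at 274.4, 191.6, 211.8 and 182.5. Without siRNA the CCl4 mice stood clear of their counterparts, and in the siLuc-LNP arm mouse 4 alone lay below them. Rplp0 rose by 0.47 on the log2 scale (SE 0.11, adjusted p = 0.00141). Rplp1 had a median of 555.5 CPM over the 13 mice without CCl4 (436.8 to 739.2) and 655.6 over the 14 with it (399.3 to 1262). It rose by 0.33 (adjusted p = 0.0396), a call lost when any of 12 single mice was left out. Its partner Rplp2 had a difference of 0.30 that did not pass (adjusted p = 0.0670). Rpl12, a protein at the foot of the stalk, ran from 209.1 to 347.8 CPM (median 236.3) without and from 221.7 to 649.7 (median 336.9) with CCl4. It rose by 0.42 (adjusted p = 0.0112).

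On the rest of the large subunit 8 more genes rose, and the 3 members that fell were all found there. Rpl41 (ENSMUSG00000093674, chr10:128383979-128387628 on GRCm39), a small basic peptide at the subunit interface, was at 378.0, 382.5, 383.9 and 338.9 CPM in control, 298.6, 367.9 and 487.0 in 4MU, 471.1, 325.2 and 353.4 in siLuc-LNP, and 336.2, 485.2 and 465.7 in siHAS2-LNP mice. With CCl4 it was at 804.9 and 443.0 CPM, with CCl4 + 4MU at 533.5, 676.7, 641.1 and 832.5, with CCl4 + siLuc-LNP at 499.5, 747.3, 1133 and 326.0, and with CCl4 + siHAS2-LNP at 770.3, 519.9, 440.4 and 413.1. The CCl4 and CCl4 + 4MU mice were all above their counterparts, while the siRNA arms overlapped. Rpl41 had the largest rise of the module, 0.67 (SE 0.16, adjusted p = 0.000815).

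Rpl39, which lines the exit tunnel of the nascent chain, rose by 0.38 (adjusted p = 0.0165). Rpl3, a protein close to the peptidyl transferase centre, had a median of 271.3 CPM without and 341.9 with CCl4 and rose by 0.27 (adjusted p = 0.0124). Rpl15 rose by 0.26 (adjusted p = 0.00321). Rpl29 (0.37) and Rpl13a (0.35) also rose, with medians of 8.413 against 10.26 CPM and 9.653 against 12.55 CPM, on few counts. Rpl35 (0.26) and Rpl23a (0.22), which flank the mouth of the exit tunnel, rose as well.

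Rpl22 (ENSMUSG00000028936, chr4:152410150-152418542 on GRCm39), an RNA-binding protein that is not essential to translation in many cells, was at 140.5, 178.2, 164.9 and 165.3 CPM in control, 136.7, 152.0 and 176.2 in 4MU, 224.3, 153.3 and 137.9 in siLuc-LNP, and 136.8, 172.3 and 157.4 in siHAS2-LNP mice. With CCl4 it was at 140.3 and 130.3 CPM, with CCl4 + 4MU at 127.7, 141.2, 125.3 and 131.4, with CCl4 + siLuc-LNP at 131.2, 127.8, 169.1 and 95.48, and with CCl4 + siHAS2-LNP at 141.2, 129.1, 132.2 and 110.8. Apart from mouse 3 of CCl4 + siLuc-LNP (169.1), the CCl4 mice lay at or under 141.2 CPM, in or below the lower part of the range without CCl4. Rpl22 fell by 0.29 (SE 0.09, adjusted p = 0.00743).

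Rpl10, which completes the subunit late in its assembly, fell by 0.26 (adjusted p = 0.0118), from a median of 557.9 CPM (480.2 to 663.8) to 472.4 CPM (375.5 to 702.7). With library totals these differences were -0.12 for Rpl22 and -0.10 for Rpl10, with adjusted p of 0.175 and 0.225 in edgeR. Scaled to the members, both were called lower relative to the other members, at -0.37 and -0.36. Rpl36 (-0.43), Rpl35a (-0.32), Rpl11 (-0.25) and Rpl7 (-0.23) joined them. Under TMM, Rpl36 had a difference of -0.31 that did not pass (adjusted p = 0.111). Rpl5 (-0.05) and Rpl11 (-0.18), which bind Mdm2 when ribosome assembly is disturbed, did not pass either (adjusted p = 0.596 and 0.149).

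On the small subunit 6 genes rose and none fell. Rps12 (ENSMUSG00000061983, chr10:23661081-23663173 on GRCm39), a protein of the beak of the subunit, was at 285.1, 384.1, 403.6 and 248.2 CPM in control, 256.5, 308.7 and 379.0 in 4MU, 493.6, 256.0 and 282.1 in siLuc-LNP, and 260.8, 423.9 and 342.6 in siHAS2-LNP mice. With CCl4 it was at 641.8 and 483.6 CPM, with CCl4 + 4MU at 395.0, 529.4, 493.5 and 567.2, with CCl4 + siLuc-LNP at 468.4, 492.0, 975.3 and 318.8, and with CCl4 + siHAS2-LNP at 671.3, 410.2, 494.6 and 318.1. The groups were separate in the arms without siRNA and overlapped in both siRNA arms. Rps12 rose by 0.65 (SE 0.16, adjusted p = 0.00131).

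Rpsa had a median of 627.9 CPM without and 882.2 with CCl4 and rose by 0.35 (adjusted p = 0.0152). Rps19, the gene most often mutated in Diamond-Blackfan anaemia, rose by 0.33 (adjusted p = 0.0229), and Rps4x, encoded on the X chromosome, by 0.31 (adjusted p = 0.00286). Rps15a (0.29) and Rps24 (0.28) were the other genes that rose. Rps6, the substrate of S6 kinase, had a median of 312 CPM without and 318 with CCl4, a difference of 0.04 (adjusted p = 0.688). Rps27a, which is made as a fusion with ubiquitin, had a difference of -0.11 (adjusted p = 0.411). Scaled to the members, Rpl41 (0.56), Rps12 (0.55) and Rplp0 (0.35) were still called higher, and Rps27 (-0.35) and Rps25 (-0.27) lower, relative to the other members.

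**Figure D5:**
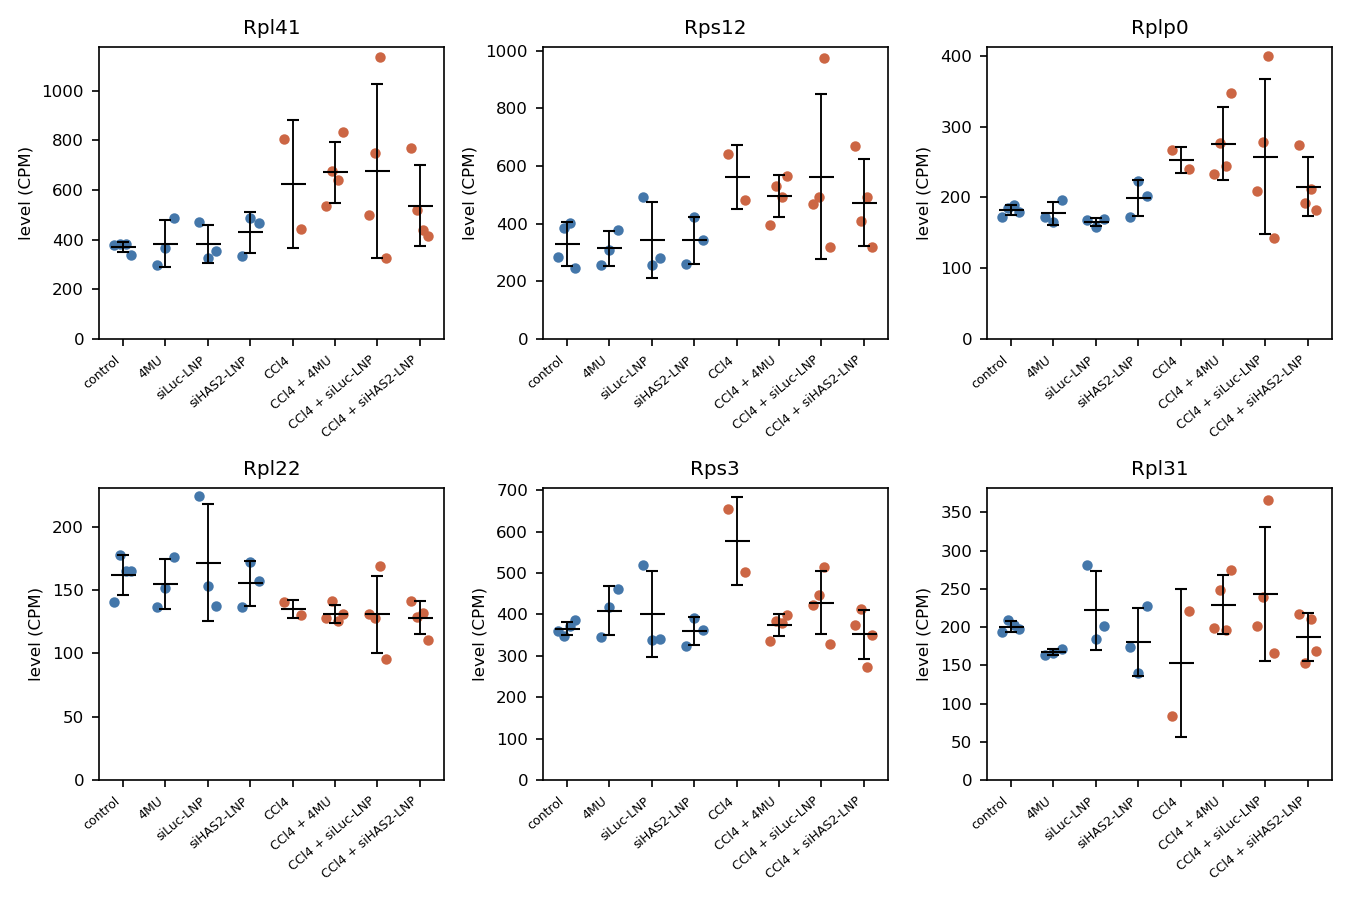
Levels (CPM) of Rpl41, Rps12, Rplp0, Rpl22, Rps3 and Rpl31 in each of 27 mice by group; points are mice, blue without and orange with CCl4, and bars give the group mean and SD. Rpl41, Rps12 and Rplp0 lie higher with CCl4 in most mice and Rpl22 lower, Rps3 is at 653.5 and 503.1 in the 2 CCl4 mice, above every control mouse, and Rpl31 is at 84.19 in CCl4 mouse 1.

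In CCl4 against control, 3 members rose and none fell, where 33.9% of all genes passed (18.0% higher and 15.9% lower) and 10 members had an unadjusted p under 0.05. The median of the members was 0.14 and that of all genes -0.02. The 2 CCl4 mice lay above all control mice for 23 members (30.7%) and below them for 7 (9.33%), where 25.7% of all genes lay above and 24.9% below. Rps3 (ENSMUSG00000030744, chr7:99098784-99132945 on GRCm39), a protein at the mRNA entry channel, was at 653.5 and 503.1 CPM against 359.5, 347.0, 370.9 and 385.6 in control. The CCl4 mice did not overlap the control mice, and Rps3 rose by 0.66 (SE 0.19, adjusted p = 0.0108). Rpl13a was at 16.55 and 14.84 CPM against 8.397, 11.98, 10.89 and 9.036, also without overlap, and rose by 0.64 (adjusted p = 0.0387). Rps4x was at 520.7 and 543.5 CPM against 322.6, 356.2, 382.3 and 392.9 and rose by 0.55 (adjusted p = 0.0206). Rps12 (0.77) and Rpl41 (0.75) had larger estimates that did not pass (adjusted p = 0.0798 and 0.0821). Without CCl4 mouse 1 no member was called, and with library totals 39 were called, all higher, where 41.4% of all genes passed and their median was 0.39. Scaled to the members, where 22.0% of all genes passed, 3 members were called higher, Rps12 (0.70), Rpl41 (0.66) and Rps3 (0.57). In that scaling 5 were called lower, among them Rpl36 (-0.86), Rps27 (-0.59), Rpl17 (-0.51) and Rpl10 (-0.50).

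That mouse stood apart inside the module. In CCl4 mouse 1, 15 members lay more than 0.5 on the log2 scale from the position that the median member of the mouse gave them, against at most 3 in any other mouse. The SD of the members around that position was 0.43 there and at most 0.27 in the others. Rpl31 was at 84.19 CPM in this liver, or 1.30 below its position, and Rps27, Rpl36 and Rpl17 were 0.71, 0.68 and 0.68 below. In siHAS2-LNP mouse 2, Rpl31 (0.58 below) was again among the members that lay lowest. In siLuc-LNP mouse 1 they included Rpl29 (1.05 below), Rplp0 (0.73 below) and Rpl15 (0.52 below), the same 3 genes that were called with siLuc-LNP in both groups. The mitochondrially encoded share of counts in CCl4 mouse 1 was 1.42%, the lowest of the series, and its part in these departures was not tested.

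With 4MU in both groups, only Rplp0 rose with CCl4, by 0.63 (SE 0.22, adjusted p = 0.0401), where 23.6% of all genes passed (13.1% higher and 10.5% lower). Its values did not overlap between the groups. The 4 mice with CCl4 lay above the 3 without it for 10 members (13.3%) and below them for none, against 18.3% and 17.7% of all genes. The median member was at 0.18, and all genes at 0.00. Rpl41 (0.80, adjusted p = 0.0573) and Rps12 (0.66, adjusted p = 0.126) did not pass although their groups were separate too. The call of Rplp0 was lost without any 1 of the 4MU mice and without CCl4 + 4MU mouse 2 or mouse 4.

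With siLuc-LNP in both groups, Rplp0 (0.64, adjusted p = 0.0378), Rpl29 (0.62, adjusted p = 0.0427) and Rpl15 (0.39, adjusted p = 0.0383) rose, where 24.1% of all genes passed (13.0% higher and 11.1% lower). No member was separate between the groups, against 13.7% of all genes in the higher and 12.4% in the lower direction. Rpl15 was at 231.4, 221.2, 287.8 and 180.9 CPM with CCl4 and at 174.4, 181.4 and 171.5 without it, and Rpl29 at 9.560, 10.11, 14.83 and 7.937 against 5.835, 5.697 and 8.965. In both genes mouse 4 of CCl4 + siLuc-LNP lay in the range of the mice without CCl4. The share of all genes called is not given for the refits that follow, so their counts are not set against it. Without mouse 4 of CCl4 + siLuc-LNP 14 members were called, all higher. Without siLuc-LNP mouse 1 there were 5, all higher and none of them these 3 genes (adjusted p of 0.0869 for Rplp0, 0.166 for Rpl29 and 0.0945 for Rpl15 in edgeR). Without siLuc-LNP mouse 2 there were 0. Without CCl4 + siLuc-LNP mouse 3 all 3 calls were lost too, and 2 other members were called lower (adjusted p of 0.164 for Rplp0, 0.134 for Rpl29 and 0.107 for Rpl15 in edgeR), and without CCl4 + siLuc-LNP mice 3 and 4 there was 1.

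With siHAS2-LNP in both groups, no member passed in edgeR and none had an unadjusted p under 0.05, where 12.7% of all genes passed. DESeq2 also called none, and limma-voom called 3 lower. The share of all genes called is not given for either method. The median of the members was -0.02 and that of all genes 0.03. Rps12 had the largest estimate, 0.47 (SE 0.31, adjusted p = 0.349), followed by Rpl13a (0.35), and Rpl36 (-0.48) had the lowest. Rplp0 was at 0.11 (SE 0.22).

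Whether the arms differed in the CCl4 response was asked with interaction terms, which share control groups with the comparisons above. No member passed in edgeR for 4MU, siLuc-LNP or siHAS2-LNP against siLuc-LNP, with 4, 1 and 0 members at an unadjusted p under 0.05. DESeq2 called 1 member and limma-voom 1 member, each lower, for 4MU, and neither called any for the others. In edgeR, 5.65% of all genes passed for 4MU, 0.00709% for siLuc-LNP and 0.0354% for siHAS2-LNP. The shares with DESeq2 and limma-voom are not given. The extreme estimates for 4MU were those of Rpl36 (1.02, adjusted p = 0.180) and Rpl31 (0.85) upward and Rps3 (-0.79, SE 0.26, adjusted p = 0.0678) and Rpl13a (-0.54) downward. For siLuc-LNP they were Rpl36 (0.55) and Rpl29 (0.53), and Rps3 (-0.56) and Rps14 (-0.51). For siHAS2-LNP they were Rps10 (0.53) and Rpl35a (0.27), and Rplp0 (-0.53, SE 0.31, adjusted p = 0.541) and Rpl41 (-0.50).

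The treatments were next compared among CCl4 mice. Against CCl4 alone, CCl4 + 4MU changed only Rps3, which was at 335.5, 383.8, 378.5 and 397.9 CPM against 653.5 and 503.1 and fell by 0.63 (SE 0.19, adjusted p = 0.0269), where 18.1% of all genes passed (8.14% higher and 9.95% lower). CCl4 + siHAS2-LNP changed the same gene, at 374.0, 412.2, 272.4 and 349.8 CPM, which fell by 0.72 (SE 0.19, adjusted p = 0.0164), where 14.3% passed (7.01% higher and 7.28% lower). Neither treated group overlapped the CCl4 mice in Rps3, and both comparisons share those 2 mice. For the refits with a mouse left out, the share of all genes called is not given. All calls of Rps3 were lost without CCl4 mouse 1, with adjusted p of 0.146 against control, 0.220 for CCl4 + 4MU and 0.154 for CCl4 + siHAS2-LNP in edgeR. Without CCl4 mouse 2 both treatment calls were lost as well (adjusted p of 0.0739 and 0.0586), while the call against control was kept, and 2 other members were called higher in CCl4 + 4MU against CCl4. The call for CCl4 + 4MU was also lost without mouse 1 of that group (adjusted p = 0.0652), and that for CCl4 + siHAS2-LNP without mouse 3 of its group (adjusted p = 0.0534).

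The median of the members was -0.03 for CCl4 + 4MU (all genes 0.04) and -0.15 for CCl4 + siHAS2-LNP (all genes 0.02). With library totals, 19 and 13 members were called in these comparisons, all lower, where 26.2% and 14.4% of all genes passed and the medians of all genes were -0.30 and -0.16. In CCl4 + siLuc-LNP against CCl4 no member passed in edgeR, 3 had an unadjusted p under 0.05, DESeq2 and limma-voom called 0, and 0.262% of all genes passed. Rps3 was at 423.2, 447.7, 514.0 and 329.7 CPM there, a difference of -0.43 (SE 0.20, adjusted p = 0.321), with mouse 3 between the 2 CCl4 mice. Rpl31 (0.67) was among the largest estimates, with CCl4 mouse 1 in the comparison, and Rps3 and Rps2 (-0.32) were the lowest.

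Against the nanoparticle control, CCl4 + siHAS2-LNP gave lower estimates for 70 of the 75 members, and none passed in edgeR. The share of all genes with a lower estimate is not given. Members that shift together in a mouse are not separate observations. The median was -0.21 for the members and 0.00 for all genes, 1.08% of which passed. An unadjusted p under 0.05 was found for 8 members, DESeq2 called 1 lower and limma-voom 0. Rpl23a was among the lowest estimates (-0.54, SE 0.16, adjusted p = 0.0877), and the highest were those of Rps10 (0.41) and Rps2 (0.06). This median lay between -0.39 and 0.02 as single mice were left out, and the summed levels of the groups overlapped.

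Without CCl4, no member passed in edgeR for 4MU against control, siLuc-LNP against control or siHAS2-LNP against siLuc-LNP, and 0, 0 and 1 members had an unadjusted p under 0.05. DESeq2 and limma-voom called none either. Of all genes 0.00709% passed for 4MU, which is 1 gene, 0.205% for siLuc-LNP and 0.0638% for siHAS2-LNP. The medians of the members were -0.07, 0.06 and -0.06, and the median SE of a member lay between 0.22 and 0.23. For 4MU the extremes included Rps10 (0.39), Rps3 (0.16) and Rpl17 (-0.27). For siLuc-LNP they included Rps14 (0.40), Rps2 (-0.40) and Rpl29 (-0.31). For siHAS2-LNP against siLuc-LNP they included Rps2 (0.45), Rpl29 (0.41) and Rps14 (-0.48).

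The genes around the module are given for CCl4 against no CCl4, mean of the 4 arms. Among ribosomal proteins whose names fall outside the rule, Rack1, a scaffold on the small subunit, rose by 0.29 (adjusted p = 0.0166), and Fau (-0.29, adjusted p = 0.0598) and Rps3a1 (0.12) did not pass. Of 6 tested paralogs, 2 rose and none fell. Rpl22l1, the paralog of Rpl22, was at 85.07 and 59.79 CPM in CCl4 against 21.83, 34.65, 44.88 and 29.77 in control, without overlap. It rose by 0.52 over the 4 arms (SE 0.13, adjusted p = 0.00234), the opposite direction to Rpl22, and by 1.14 in CCl4 against control. In the 4MU arm its estimate was -0.12 (adjusted p = 0.777). Rps4l, the paralog of Rps4x, rose by 0.59 (adjusted p = 0.00643).

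Of 15 elongation factors and other TOP mRNAs, 4 rose, among them Hnrnpa1 (0.70), Nap1l1 (0.41) and Eif5a (0.23), and 2 fell, Naca (-0.38) and Eif3e (-0.25), with a median of -0.03. Of 27 initiation factors, 6 rose and 9 fell. Eif2s1 (0.32), Eif4e, the cap-binding protein (0.28), and Eif4g1 (0.26) rose, and Eif4a2 (-1.01), Eif5 (-0.75) and Eif1 (-0.56) fell. Of 56 ribosome biogenesis factors, 9 rose, such as Tsr1 (0.52), Rrp12 (0.47) and Utp20 (0.41), and 11 fell, such as Nop10 (-0.71), Rcl1 (-0.48) and Emg1 (-0.45). Of 14 genes of RNA polymerase I and its factors, which transcribe ribosomal RNA, 2 rose (Polr1a by 0.55 and Taf1c by 0.48) and 3 fell (Polr1f by 0.47, Polr1h by 0.38 and Polr1c by 0.22).

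Chaperones of ribosomal proteins gave 2 falls among 5 genes, Tsr2 (-0.38), which escorts Rps26, and Bccip (-0.24). Of 9 regulators, 5 fell and none rose, among them Deptor (-0.61) and Tsc1 (-0.37), both inhibitors of mTORC1 signalling, and Larp1 (-0.30), the TOP-binding protein. Of 79 tested rows of mitochondrial ribosomal proteins, 2 rose and 37 fell, with a median of -0.19, where short coding genes outside the module had -0.20. For each of these lists the background is 26.2% of all tested genes higher and 25.5% lower, or 51.7% in either direction.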

How the data were processed

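Bulk RNA-seq of whole liver from 27 mice in 8 groups was taken as deposited: whole-number counts per Ensembl gene. Per the labels and methods, the authors made directional libraries, read at least 85 bases from both ends and trimmed with Trimmomatic 0.39. They aligned with HISAT2 to GRCm39, counted uniquely mapped read pairs with featureCounts against Ensembl and tested with DESeq2 in R 3.4.2. Reads with more than a single position were not counted.

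Testing covered the 14114 genes whose mean count was 10 or more, with edgeR 4.0.16 (TMM, glmQLFit and glmQLFTest, robust, 8 groups in 1 fit, no covariate), with Benjamini-Hochberg adjustment over all of them and a threshold of 0.05. Alternatives were DESeq2 1.42.0, limma-voom 3.58.1 with sample weights, DESeq2 size factors, library totals, no filter, a replicate block, the compared groups alone and each mouse left out, and 3 added after seeing the data. Library totals (7044386 to 29425937) set the counting precision. Deviations used log2(CPM + 0.5). Symbols and copies came from the GENCODE vM39 annotation and GRCm39 genome, in which 665 table genes had no entry. Scripts were tested on simulated data. No duplicate libraries were found. Named genes were the largest and smallest calls of each comparison, up to 5 each way (without a call, the 2 extremes each way), fixed names of known role, the 3 highest and lowest per kilobase and those nearest the filter. Some genes that this rule names are not reported here. Members and lists were chosen with earlier results of these data known.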

Additional observations from a re-analysis of the deposited data

Results flagged for a closer look

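In 128 sets of values, each a named gene in a group of 4 mice, a single mouse stood apart from the others by Dixon's criterion in 2, and chance gives about 1 in 20 sets. Rpl13a in CCl4 + siHAS2-LNP was at 17.46 CPM in mouse 3, with the nearest mouse at 12.53 and the lowest at 11.88, a gap of 0.885 of the range. Rpl41 in control was at 338.9 CPM in mouse 4, with the nearest mouse at 378.0 and the highest at 383.9, a gap of 0.868 of the range. No interaction term passed for a named gene.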

How the results depend on the processing

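None of the 22 calls of named genes changed direction under an alternative. Of the medians over the members, which lay between -0.21 and 0.18, 5 of 15 took the other sign with library totals, 2 with limma-voom, 2 with a replicate block and 2 of 6 without CCl4 + siLuc-LNP mice 3 and 4, and 11 of 15 did so without at least 1 single mouse. Medians and summed levels moved by more than the spread between mice only with library totals. The number of members called was 20 for the mean of the 4 arms, 3 for CCl4 against control, 1 with 4MU, 3 with siLuc-LNP and 0 with siHAS2-LNP in both groups, and 1 each for CCl4 + 4MU and CCl4 + siHAS2-LNP against CCl4.

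With DESeq2, the count was 5 for CCl4 against control, 3 with 4MU, 5 with siLuc-LNP, 1 for CCl4 + siHAS2-LNP against CCl4 + siLuc-LNP and 1 for 4MU by CCl4. With limma-voom it was 4 with 4MU, 13 with siLuc-LNP, 3 with siHAS2-LNP and 1 for 4MU by CCl4. Without the filter on low counts it was 0 for CCl4 + 4MU against CCl4. With library totals and no TMM it was 40 for the mean of the 4 arms, 39 for CCl4 against control, 3 with 4MU, 8 with siLuc-LNP, 19 for CCl4 + 4MU, 1 for CCl4 + siLuc-LNP and 13 for CCl4 + siHAS2-LNP against CCl4, and 10 for 4MU by CCl4. The medians of the members there, against 0.14, -0.03, 0.05, 0.06 and 0.01 under TMM, were 0.54 for CCl4 against control (all genes 0.39), -0.35 for CCl4 + 4MU (all genes -0.30) and -0.23 for CCl4 + siLuc-LNP against CCl4 (all genes -0.23), and -0.35 and -0.33 for the 4MU and siLuc-LNP interactions (all genes -0.38 and -0.29). The summed level relative to the mean mouse became 1.36 for CCl4 mouse 2 and 1.31 for CCl4 + siLuc-LNP mouse 3. Fitted on the compared groups alone, which gives no value for the mean of the arms, the count was 5 for CCl4 against control, 6 with 4MU, 0 with siLuc-LNP, 0 for CCl4 + 4MU and 0 for CCl4 + siHAS2-LNP against CCl4, and 2 for 4MU by CCl4. Scaled to the members, added after seeing the data, it was 8 for CCl4 against control, 2 with 4MU, 5 with siLuc-LNP and 0 for CCl4 + siHAS2-LNP against CCl4. Without CCl4 + siLuc-LNP mice 3 and 4, also added, it was 1 with siLuc-LNP. Summing each gene with its processed pseudogenes (314 rows into 61 genes, also added) kept all 22 calls of named genes. Where no share of all genes called under the same setting is printed, these counts and those below do not show how the members stand against it. The cause of these moves was not tested.

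Deviations of same-numbered mice of different groups had correlations from -0.48 to 0.47 (83 pairs, median -0.02). Those of mice with different numbers ran from -0.54 to 0.63 (234 pairs, median 0.002). No pairing by number was seen in these values, which cannot show that there is none. With a replicate block the count was 1 for CCl4 against control, 3 with 4MU and 0 for CCl4 + 4MU against CCl4, and 23 for the mean of the 4 arms.

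As single mice were left out, the count lay between 16 and 27 for the mean of the arms, 0 and 3 for CCl4 against control, 0 and 2 with 4MU, 0 and 14 with siLuc-LNP, 0 and 2 for both CCl4 + 4MU and CCl4 + siHAS2-LNP against CCl4, 0 and 1 for CCl4 + siLuc-LNP against CCl4, CCl4 + siHAS2-LNP against CCl4 + siLuc-LNP and 4MU by CCl4, and at 0 for the others. Without control mouse 1 it was 1 for CCl4 against control. Without CCl4 mouse 2 it was 2 for CCl4 + 4MU against CCl4, both higher, the lower call of Rps3 being lost, and 1, also higher, for CCl4 + siLuc-LNP against CCl4. Without CCl4 + siLuc-LNP mouse 3 it was 2 with siLuc-LNP, both lower. Without CCl4 + siHAS2-LNP mouse 1 it was 2, and without mouse 3 it was 0, for CCl4 + siHAS2-LNP against CCl4. Leaving out a CCl4 mouse leaves 1, whose spread is taken from the other groups. Medians lay between 0.02 and 0.13 for the mean of the arms and 0.09 and 0.20 for CCl4 against control. Depth limits most the genes with few assigned reads, Rps10, Rpl29 and Rpl13a.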
